A study of Mus musculus with 4 samples.

Results

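The miRNAs described here are mmu-miR-143-3p, mmu-miR-145a-5p and mmu-miR-145a-3p, products of a gene pair known for smooth muscle. They were chosen by name, and all 3 were present among the 1809 miRNAs listed for every library. The libraries hold small RNA of exosome preparations, precipitated from EDTA plasma of C57BL/6 mice. All mice had received LLC cells, a Lewis lung carcinoma line, by vein and were sampled on day 21. Wild-type (WT) mice were compared with mice of genotype gp49B-/- (gp49B KO), which lack an inhibitory receptor of myeloid cells, and both genotypes carried the LLC graft, so no tumour-free mice were compared. Each genotype had 2 libraries, called WT-1 and WT-2 and KO-1 and KO-2 after their pool number, each a pool of 3 plasma samples in WT and of 4 in KO. Because only small RNA was counted, the genotype labels were not checked against the deleted gene. Mice were pooled before sequencing, so the spread between libraries is not that between animals. The deposited UMI counts per miRNA, which count molecules tagged before amplification, summed to 1577749 in WT-1, 3170219 in WT-2, 1709669 in KO-1 and 3630249 in KO-2.

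miR-143 and miR-145 are cut from a shared primary transcript. Serum response factor and its partner myocardin switch that transcript on in smooth muscle, where the miRNAs hold down Klf4, Klf5 and Elk1 and so favour the contractile state. Fibroblasts and pericytes also make them, and in solid tumours they are known mainly from stroma rather than from tumour cells. In plasma their cells of origin cannot be read from the count, and more vesicles from a cell type cannot be told apart from more miRNA per vesicle.

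On GRCm38 the guide strand miR-143-3p lies on chromosome 18 at 61649199 to 61649219, on the minus strand, in the exon of the miRNA gene Mir143. The guide strand miR-145a-5p lies at 61647866 to 61647888 and its partner arm miR-145a-3p at 61647827 to 61647848, on the same strand, in the exon of Mir145a. The guide strands are 1310 bases apart, and no other GENCODE gene covers either of them. A relative, miR-145b, lies at 69022237 to 69022257 on the same chromosome, 7.37 megabases away, in the exon of Mir145b. How reads matching more than 1 of these were assigned was not given in the sources used here, so counts of the miR-145 rows could be split.

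The first question was how much of each miRNA the preparations held. miR-143-3p was by far the main product, with 8425 UMIs in WT-1, 14937 in WT-2, 13987 in KO-1 and 10672 in KO-2. Its share of all miRNA UMIs was 0.534% in WT-1 (0.523 to 0.545%, the exact 95% binomial interval), 0.471% in WT-2 (0.464 to 0.479%), 0.818% in KO-1 (0.805 to 0.832%) and 0.294% in KO-2 (0.288 to 0.300%). KO-1 thus held the highest share and KO-2 the lowest, with both WT libraries between them. By abundance it ranked 26 and 22 in WT-1 and WT-2, and 23 and 35 in KO-1 and KO-2. For scale, miR-16-5p of blood cells, the most abundant by mean, took between 24.8% and 35.4%, and in WT-2 it came second to the liver's miR-122-5p (26.6%).

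miR-145a-5p was far less abundant, with 355 UMIs in WT-1, 1344 in WT-2, 620 in KO-1 and 879 in KO-2. Its share was 0.0225% in WT-1 (0.0202 to 0.0250%), 0.0424% in WT-2 (0.0402 to 0.0447%), 0.0363% in KO-1 (0.0335 to 0.0392%) and 0.0242% in KO-2 (0.0226 to 0.0259%). Here the WT libraries held both the highest and the lowest share, and the KO libraries lay between them. Its rank was 139 and 74 in WT-1 and WT-2, and 109 and 100 in KO-1 and KO-2.

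miR-145a-3p, the arm that is usually degraded, had 38 UMIs in WT-1, 40 in WT-2, 56 in KO-1 and 45 in KO-2. Those counts were close to that of the middle miRNA of each library, which had 47, 31, 43 and 42 UMIs in the same order. They also lay within the range of the counts of the heart miRNA miR-208a-3p, which had 63, 30, 53 and 27. The share of miR-145a-3p, 0.00241% and 0.00126% in WT and 0.00328% and 0.00124% in KO, followed the pool number, with both pool 1 libraries above both pool 2 libraries. This order is not particular to it, since the count of the middle miRNA was no higher in pool 2 either, where UMI totals were larger.

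**Figure D1:**
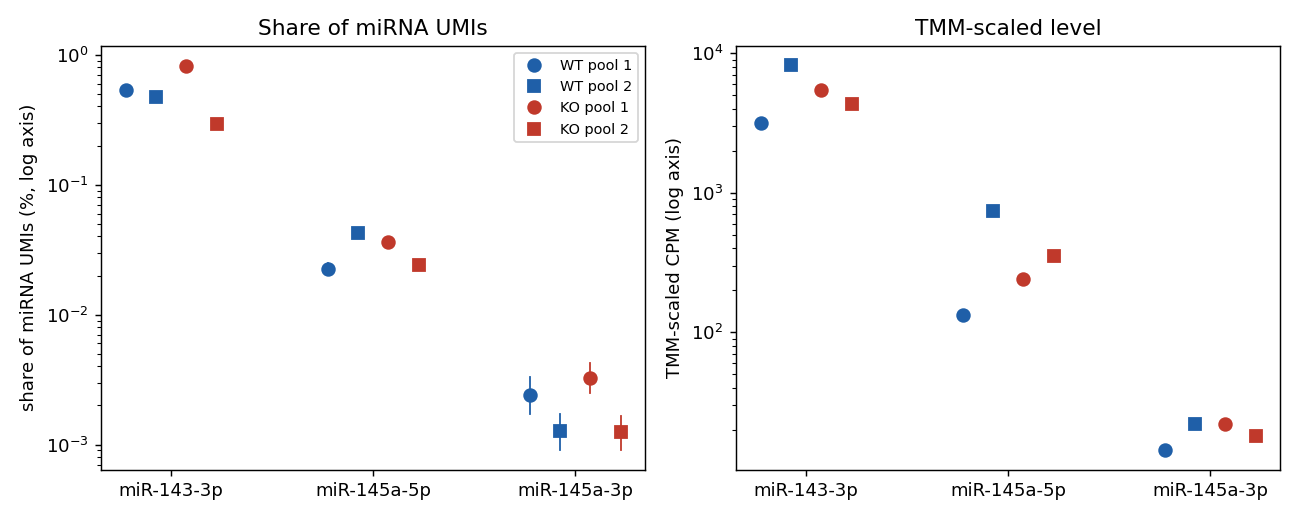
Share of miRNA UMIs (left, %, log axis, bars are exact 95% binomial intervals for counting error) and TMM-scaled CPM (right, log axis) of the 3 miRNAs in each of 4 libraries; blue is WT, red is KO, circles are pool 1 and squares pool 2. For no member do both KO points lie on 1 side of both WT points: miR-143-3p in KO runs from 0.294% to 0.818% and in WT from 0.471% to 0.534%.

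Reads per UMI, a measure of how often each molecule was read, followed the library. For miR-143-3p there were 6.24 and 6.63 reads per UMI in WT and KO-1, and 1.75 and 2.31 in WT and KO-2. Over all miRNAs these were 5.29, 5.70, 1.69 and 2.11 in the same order, so miR-143-3p was read slightly more often per molecule than the average miRNA in each library. miR-145a-5p had 5.74, 6.50, 1.67 and 2.12, and miR-145a-3p 6.13, 5.95, 1.80 and 2.07. The pools thus differed in sequencing depth per molecule by more than the genotypes did, and their lists of features also differed (1930 in pool 1 and 1888 in pool 2).

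The main comparison asked whether these miRNAs differ between gp49B KO and WT vesicle preparations. None of the 3 rose or fell by the test. Levels were scaled with TMM, a factor per library that aligns the bulk of miRNAs, and are given as CPM, counts scaled to a common total. For miR-143-3p the scaled level was 3149 CPM in WT-1, 8211 in WT-2, 5445 in KO-1 and 4299 in KO-2. WT thus held the highest and the lowest level on this scale, whereas KO held both extremes of the share. The order of the libraries therefore depends on the scaling. The means were 5679.8 ± 3579.6 CPM in WT and 4872 ± 810.3 in KO (SD, n = 2 each). The log2 fold change of KO over WT was -0.22 (SE 0.80, 95% interval -1.99 to 1.55), with an adjusted p of 0.99995 in edgeR's quasi-likelihood test with Benjamini-Hochberg adjustment.

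For miR-145a-5p the scaled level was 133 CPM in WT-1, 739 in WT-2, 241 in KO-1 and 354 in KO-2. Both KO libraries lay inside the range of WT. The means were 436 ± 429 CPM in WT and 298 ± 79.7 in KO (SD, n = 2 each). This was a log2 fold change of -0.55 (SE 0.76, 95% interval -2.22 to 1.13) with an edgeR adjusted p of 0.99995. miR-145a-3p had 14.2 and 22.0 CPM in WT-1 and WT-2 against 21.8 and 18.1 in KO, a log2 fold change of 0.15 (SE 0.42, 95% interval -0.76 to 1.07) with an edgeR adjusted p of 0.99995. Each interval reaches well to both sides of 0, so the data do not show that the genotypes are alike.

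Of the 1797 miRNAs tested, edgeR called 0, or 0%, at an adjusted p under 0.05, so the absence of a call is shared with all others. At an unadjusted p under 0.05 there were 32 (1.78%), none of them a member, and limma-voom had 27 (1.5%) and DESeq2 28 (1.56%), with 0 called by either. The shares, which need no scaling factor, gave no clear difference either, although for miR-143-3p the mean share was higher in KO and the scaled level lower. Mean shares were 0.503% ± 0.0444 in WT and 0.556% ± 0.371 in KO for miR-143-3p, and 0.0324% ± 0.0141 and 0.0302% ± 0.00852 for miR-145a-5p (SD, n = 2 each). An exact permutation test, two-sided, gave p = 1 for all 3 members, where 4 libraries allow no p below 0.333. KO and WT overlapped for all 3 on both scales, where 21.1% of tested miRNAs did not overlap in scaled CPM and 5.4% did not in share.

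The sign of the estimates rested on single libraries. Without WT-2 the log2 fold change became 0.63 for miR-143-3p and 1.17 for miR-145a-5p, and scaled on total UMIs that of miR-143-3p became 0.15. Without WT-1 that of miR-145a-3p became -0.12, while that of miR-145a-5p kept its sign at -1.29.

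Within each pool number the guide strands differed between the KO and the WT library by more than counting error, but in opposite directions. In pool 1 miR-143-3p was 1.73 times as high in KO as in WT (exact 95% interval 1.68 to 1.78), and in pool 2 it was 0.524 times as high (0.511 to 0.537). miR-145a-5p gave nearly the same pair of ratios, 1.82 (1.59 to 2.08) in pool 1 and 0.479 (0.440 to 0.522) in pool 2. These intervals cover counting error only, with 1 library on each side, so the opposite directions were not tested against the spread between libraries.

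The low-count arms gave ratios on the same sides of 1 with wide intervals. miR-145a-3p had 1.54 (0.999 to 2.38) in pool 1 and 0.824 (0.526 to 1.30) in pool 2. miR-143-5p, the partner arm of miR-143-3p, had 97 and 48 UMIs in the WT libraries against 124 and 44 in KO, and ratios of 1.33 (1.01 to 1.76) and 0.672 (0.436 to 1.03). miR-145b, with 55 and 35 UMIs in the WT libraries against 44 and 49 in KO, had 0.833 (0.548 to 1.26) and 1.03 (0.651 to 1.63), and was the only row of these 5 that was not higher in KO in pool 1.

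Scaling moved the sizes but not the sides for the guide strands. With total UMIs the ratios of miR-143-3p were 1.53 and 0.624, and those of miR-145a-5p 1.61 and 0.571. In the authors' own log2 values, the KO minus WT difference of miR-143-3p was 0.79 in pool 1 and -0.91 in pool 2, and that of miR-145a-5p was 0.86 and -1.04. For miR-145a-3p the pool 2 ratio was 0.982 with total UMIs, against 0.824 with TMM.

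**Figure D2:**
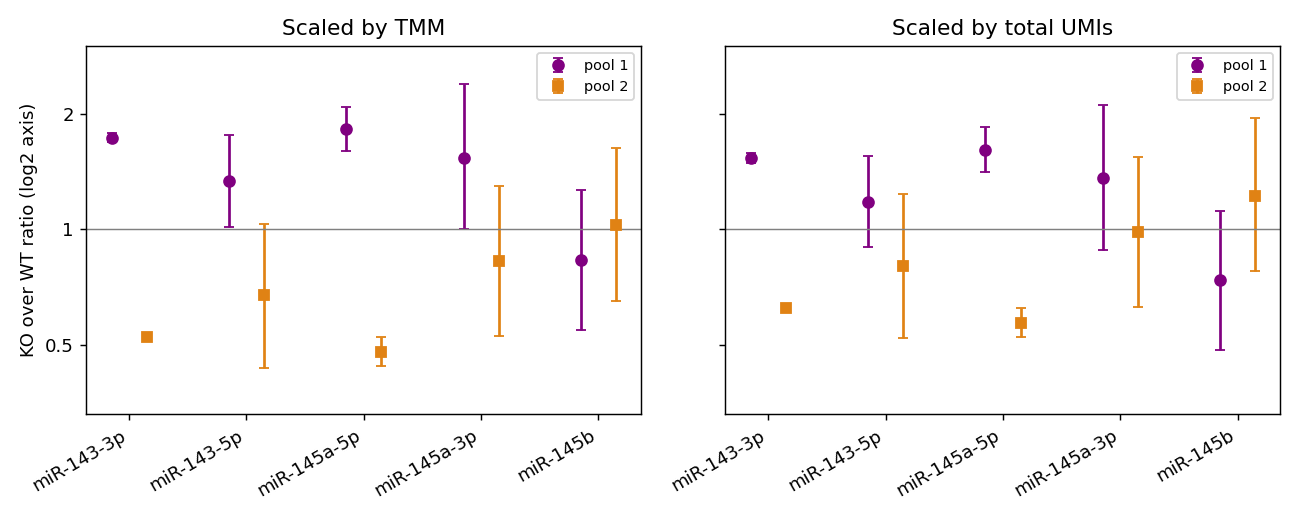
KO over WT ratio (log2 axis) within pool 1 (circles) and pool 2 (squares) for both arms of miR-143 and miR-145a and for miR-145b, scaled by TMM (left) and by total UMIs (right); bars are exact 95% intervals for counting error, and 1 library stands on each side of a ratio. The guide strands miR-143-3p and miR-145a-5p lie above 1 in pool 1 and below 1 in pool 2 in both panels, with TMM values of 1.73 and 0.524, and 1.82 and 0.479.

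Being higher in KO in pool 1 and lower in pool 2 was common in itself: with TMM 442 of the 1780 tested miRNAs with counts in every library did so (24.8%), and 112 of the 352 with a mean of 100 or more UMIs (31.8%). With total UMIs these were 10.2% and 11.1%. A change of at least 1.5-fold each way was rare, at 24 of 1780 (1.35%) and 3 of 352 (0.852%) with TMM, and 10 of 1780 (0.562%) and 3 of 352 (0.852%) with total UMIs. The 3 of 352 were miR-143-3p, miR-145a-5p and miR-181a-1-3p, the partner arm of a lymphocyte miRNA, under either scaling. The 1.5-fold limit was set with the members' ratios known, so their place among the 3 is a description.

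The place of a miRNA among the others within a pool is the same under any scaling, since a scaling multiplies every ratio of a pool alike. Of the 352 miRNAs, 85.2% had a lower pool 1 ratio than miR-143-3p and 1.99% a lower pool 2 ratio. For miR-145a-5p these were 88.6% and 0.568%. Dividing the pool 1 ratio by the pool 2 ratio gave 3.80 for miR-145a-5p, with rank 9 of 352, and 3.30 for miR-143-3p, with rank 11. Ranks 1 to 6 were arms of muscle miRNAs, led by miR-206-3p at 10.3, and those with ranks 7 and 8 were miR-146b-5p at 3.99 and the myeloid miR-223-3p at 3.89. miR-206-3p reached its place by a large pool 1 ratio (20.8) with a pool 2 ratio also above 1 (2.03), and miR-223-3p had 2.79 and 0.717.

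**Figure D3:**
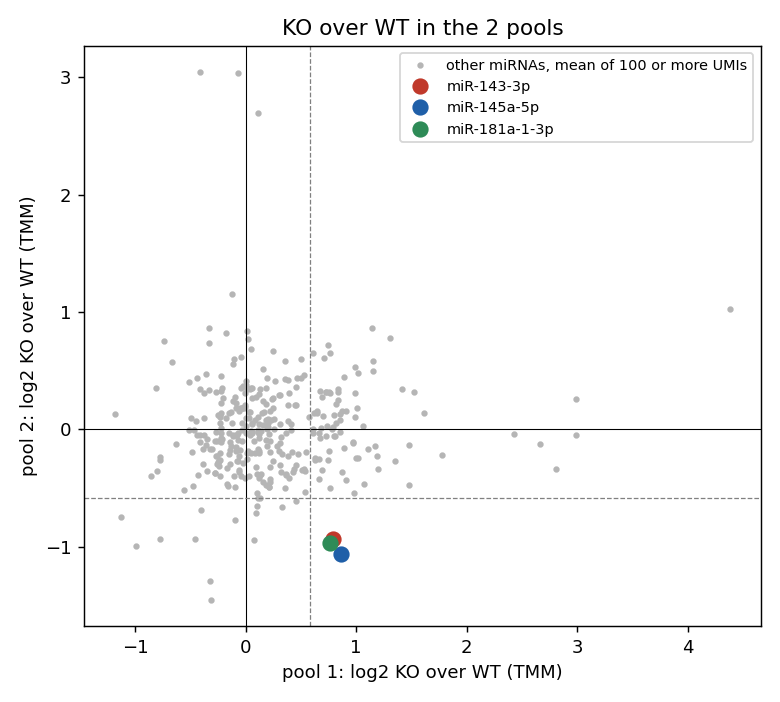
Log2 KO over WT ratio in pool 1 (horizontal) against pool 2 (vertical), TMM-scaled, for 352 miRNAs averaging 100 or more UMIs, 1 point each; dashed lines mark 1.5-fold higher in pool 1 and 1.5-fold lower in pool 2. Past both lines, at the lower right, lie 3 miRNAs: miR-143-3p, miR-145a-5p and miR-181a-1-3p.

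The pool numbers also differed within a genotype. With TMM, miR-145a-5p was 5.57 times as high in pool 2 as in pool 1 in WT (4.95 to 6.28) and 1.47 times in KO (1.32 to 1.63). miR-143-3p was 2.61 times as high in WT (2.54 to 2.68) but 0.790 times in KO (0.770 to 0.810). Scaled on total UMIs the 4 ratios became 1.88, 0.668, 0.882 and 0.359 in the same order. For miR-145a-5p in KO and miR-143-3p in WT this was the other side of 1, so the direction of their pool difference rests on the scaling. Neither guide strand was higher in the same pool in both genotypes under both scalings.

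The next comparison asked whether the products of the shared transcript kept a fixed proportion, which needs no scaling between libraries. For every 100 UMIs of miR-143-3p there were 4.21 of miR-145a-5p in WT-1 (3.78 to 4.69) and 4.43 in KO-1 (4.08 to 4.80). In pool 2 there were 9.00 in WT (8.50 to 9.52) and 8.24 in KO (7.68 to 8.82). The proportion was thus nearly the same in both genotypes of a pool and about 2 times as high in pool 2. KO over WT, the pool 1 proportions differed by a factor of 1.05 (0.921 to 1.20) and those of pool 2 by 0.915 (0.838 to 1.00), within or at the edge of counting error. Pool 2 over pool 1, it differed by 2.14 (1.89 to 2.41) in WT and 1.86 (1.67 to 2.07) in KO.

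Over genotypes the log2 difference in that proportion was -0.03, KO minus WT, with a two-sided exact permutation p of 1 (adjusted p of 1 over the 4 proportions compared, n = 2 each). Without WT-2 it was 0.52 and without KO-1 it was 0.42, where the pools are no longer balanced. The counts were not calibrated against known amounts, so a ratio of UMIs need not be the ratio of molecules in the vesicles.

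The guide strand outnumbered its partner arm in every library. There were 9.34 UMIs of miR-145a-5p per UMI of miR-145a-3p in WT-1 (6.67 to 13.4), 33.6 in WT-2 (24.5 to 47.2), 11.1 in KO-1 (8.41 to 14.8) and 19.5 in KO-2 (14.5 to 27.0). For miR-143-3p over miR-143-5p the ratios were 86.9, 311, 113 and 243 in the same order. Both were higher in pool 2 than in pool 1, in each genotype. The partner arms are low in count, with 38, 40, 56 and 45 UMIs for miR-145a-3p and 97, 48, 124 and 44 for miR-143-5p. The middle miRNA of each library had 47, 31, 43 and 42, no more in pool 2 despite its larger UMI totals. Whether the higher arm ratios reflect the arms or low counts at unequal depth was not tested. In pool 2 the miR-145a arm ratio in KO was 0.581 times that in WT (0.377 to 0.898), while in pool 1 it was 1.19 times (0.769 to 1.83). The exact permutation p between genotypes was 1 for both arm ratios.

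**Figure D4:**
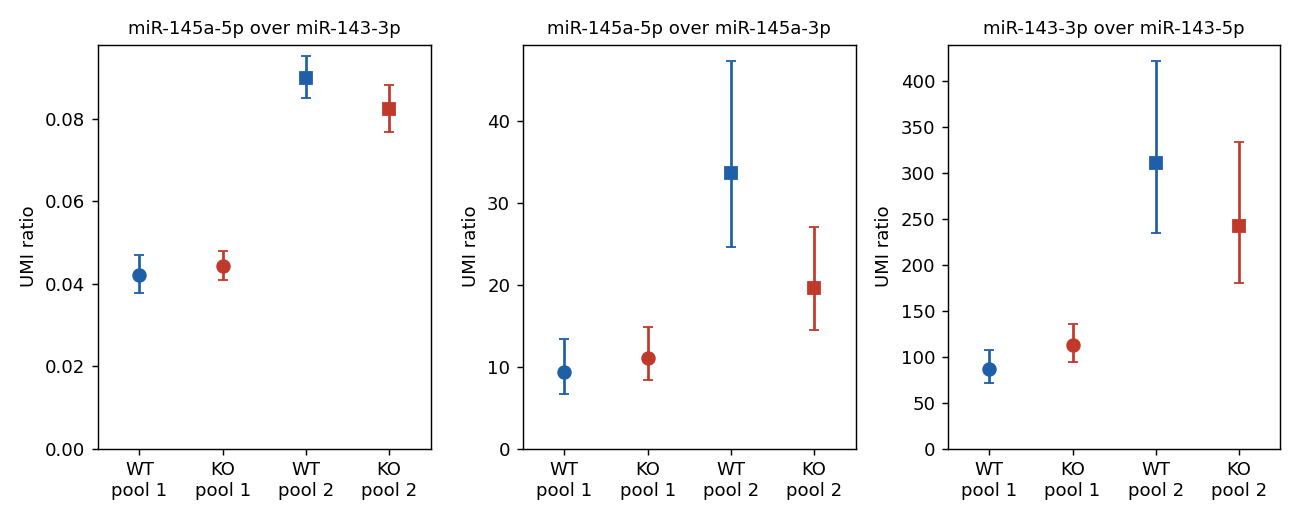
UMI ratios in each library, from left to right miR-145a-5p over miR-143-3p, miR-145a-5p over miR-145a-3p and miR-143-3p over miR-143-5p; blue is WT, red is KO, circles are pool 1, squares are pool 2, and bars are exact 95% intervals for counting error. In the left panel the pool 1 libraries sit at 0.0421 and 0.0443 and the pool 2 libraries at 0.0900 and 0.0824, so the pools separate and the genotypes do not.

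Other miRNAs of smooth muscle and mesenchymal cells were set beside the members, from a list of 25 rows that includes the 5 of the miR-143 and miR-145 group. None of the 25 was called by edgeR, and their estimates were higher in KO for 21 and lower for 4. Of the 4 lower estimates, 3 belonged to the group: miR-143-3p, miR-145a-5p and miR-145b. The median log2 fold change was 0.25, against -0.03 over all 1797 miRNAs tested, where 47.4% of estimates were higher in KO.

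Leaving out the group, 19 of the other 20 were higher in KO in pool 1 and 12 were so in pool 2 (TMM, medians 1.55 and 1.13). Over all miRNAs tested these shares were 49.3% and 48.1%. With total UMIs 17 of the 20 were higher in each pool, against 34.7% in pool 1 and 69% in pool 2 over all miRNAs. In pool 1 the guide strands, at 1.73 and 1.82 with TMM, stood above the median of their list (1.54 over the 25 rows) and inside its range. In pool 2 they stood at its bottom: no other row of the list had a lower ratio than miR-143-3p or miR-145a-5p, the next being miR-143-5p at 0.672 and miR-29c-3p, which represses collagen genes, at 0.748.

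Of these 20 rows, 8 were higher in KO in pool 1 and lower in pool 2 with TMM, as the guide strands were, and 2 with total UMIs. Over all tested miRNAs with counts in every library, 24.8% were so with TMM and 10.2% with total UMIs. Among the 8 was miR-490-3p, a smooth muscle miRNA with 15 to 58 UMIs, at 3.33 and 0.773. That gap between pools is wider than that of either guide strand but rests on few molecules and carries no interval. Its pool 1 ratio sets 48 UMIs in KO-1 against 15 in WT-1, where the smallest count above 0 was 10. With TMM the most abundant rows of the list took either course. miR-21a-5p, raised in many injured and tumour tissues, had 24527 and 25782 UMIs in the WT libraries against 32204 and 40646 in KO, with ratios of 1.37 in pool 1 and 1.16 in pool 2. The row counted jointly for miR-199a-3p and miR-199b-3p, known from fibroblasts and platelets, had 21843 and 15632 against 35508 and 33416, with ratios of 1.69 and 1.57. Both were higher in KO in both pools, unlike the members. On the same sides as the guide strands with TMM, miR-29a-3p had ratios of 1.17 and 0.933, and miR-125b-5p, common in mesenchymal cells, 2.28 and 0.855. With total UMIs these became 1.03 and 1.11 for miR-29a-3p and 2.02 and 1.02 for miR-125b-5p. Both rows then lay above 1 in both pools, so their sides rest on the scaling.

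**Figure D5:**
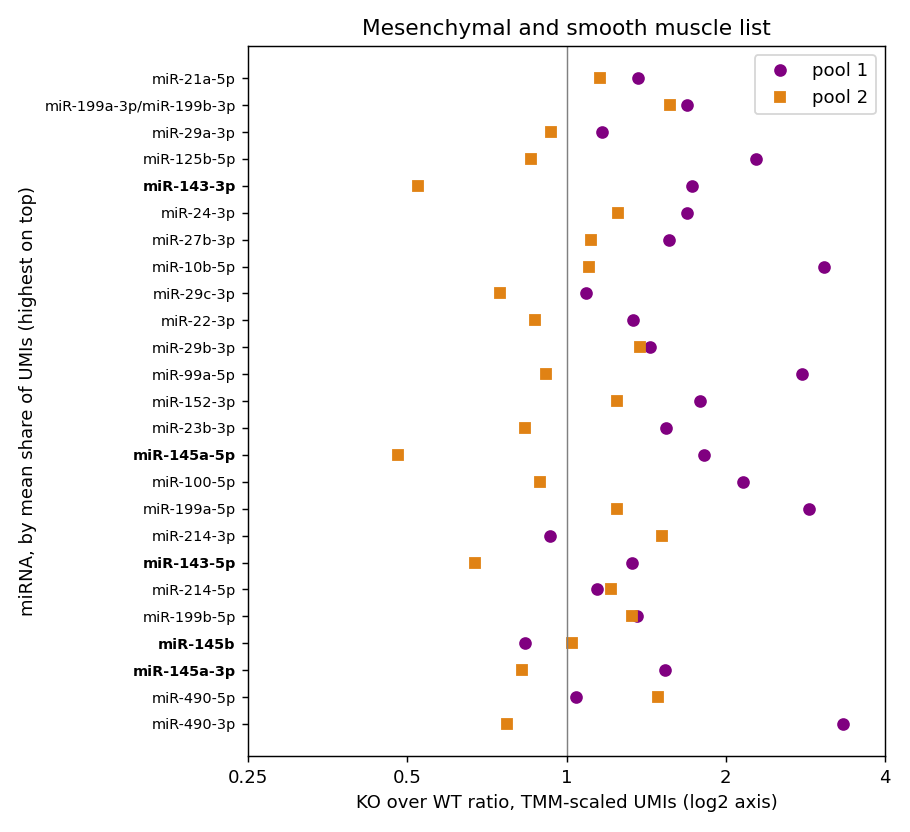
KO over WT ratio (log2 axis, TMM-scaled UMIs) in pool 1 (circles) and pool 2 (squares) for the 25 rows of the mesenchymal and smooth muscle list, ordered by mean share of UMIs with the highest on top; the miR-143 and miR-145 rows are in bold. In pool 2 the lowest points are miR-145a-5p at 0.479 and miR-143-3p at 0.524, while their pool 1 points lie among those of the other rows.

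Markers of other cells moved between the same libraries. Skeletal and cardiac muscle markers (7 rows) summed to 0.416% of UMIs in WT-1 and 0.430% in WT-2, against 3.74% in KO-1 and 0.693% in KO-2. miR-1a-3p, miR-133a-3p, miR-133b-3p and miR-206-3p carried the sum, with pool 1 ratios of 6.34 (miR-133b-3p) to 20.8 (miR-206-3p), while miR-208a-3p, miR-208b-3p and miR-499-5p, the heart and slow muscle rows, had 0.876, 1.11 and 1.26. Platelet and endothelial markers (3 rows, with miR-223-3p and both arms of miR-126a) summed to 2.15% and 1.04% against 4.78% and 0.940%. Most of each sum was miR-223-3p, which is also myeloid, with 1.56% and 0.704% against 3.86% and 0.602%. All 3 of these platelet and endothelial rows had ratios above 1 in pool 1 and below 1 in pool 2 with TMM (medians 1.88 and 0.740), the same sides as the guide strands, and 2 of the 3 with total UMIs. Red blood cell markers (5 rows) summed to 10.6% and 18.4% against 7.94% and 17.8%, and liver markers (4 rows) to 11.2% and 27.2% against 7.37% and 20.2%. No marker of these lists was at 0 in any library, and their part in the results for miR-143 and miR-145a was not tested.

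The miRNAs whose levels ran most like those of the guide strands were found by distance. The log2 scaled CPM of each miRNA was centred on its own mean, and the Euclidean distance was taken over the 4 libraries, among the 350 other miRNAs averaging 100 or more UMIs. Nearest to miR-143-3p were miR-361-3p (distance 0.39), miR-10a-5p (0.40), miR-30d-5p (0.44), miR-365-3p (0.46) and miR-26a-5p (0.53). Nearest to miR-145a-5p were miR-181a-1-3p (0.20), miR-30b-5p (0.48), miR-378a-5p (0.57), let-7c-5p (0.59) and miR-425-5p (0.59). The guide strands were 1.00 apart, which placed miR-145a-5p at rank 141 by distance from miR-143-3p, and miR-143-3p at rank 52 from miR-145a-5p. Over the 4 libraries, miR-145a-5p ran from 1.19 below to 1.29 above its mean, and miR-143-3p from 0.66 below to 0.73 above.

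Among these, miR-181a-1-3p followed miR-145a-5p most closely, with 71 and 222 UMIs in WT-1 and WT-2 and 116 and 155 in KO, and ratios of 1.70 and 0.512. miR-10a-5p, encoded in the Hoxb cluster, had 2858 and 4380 against 5775 and 4315, with ratios of 2.10 and 0.722. With 4 libraries a short distance is easily reached, and it is given as a description of these libraries.

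RefSeq's table (GRCm38.p6) held mature sequences for 7 of these 10 nearest miRNAs. They are shown so that their seeds, bases 2 to 8 in capitals, can be compared, since miRNAs that share a seed recognise the same sites.
miR-361-3p: uCCCCCAGgugugauucugauuugu
miR-10a-5p: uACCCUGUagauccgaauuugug
miR-365-3p: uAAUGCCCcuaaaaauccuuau
miR-26a-5p: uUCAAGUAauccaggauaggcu
miR-181a-1-3p: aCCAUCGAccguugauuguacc
let-7c-5p: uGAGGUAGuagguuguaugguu
miR-425-5p: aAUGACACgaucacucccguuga
The 7 seeds shown all differed from each other. No sequence was held for miR-30d-5p, miR-30b-5p and miR-378a-5p, so their seeds were not compared. Of these, miR-30d-5p and miR-30b-5p bear the same family name, miR-30.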

How the data were processed

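The authors deposited counts of UMIs for each mature miRNA, as whole numbers without normalization, and these were used, with their deposited read counts and deposited log2 values as alternatives. A log2 value equals log2 of the UMI count plus a constant per library. Exosomes were precipitated with ExoQuick and libraries made with the QIAseq miRNA kit, per the labels' protocols. The submitters' processing notes name FastQC 0.11.9 and GRCm38 (mm10). Aligner and counter were not given in the sources used here. Column names in the pool 2 libraries' own files depart from their labels, so those files were assigned by sample and checked by their counts.

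The 1809 miRNAs listed for all 4 libraries were kept. edgeR 4.0.16 (R 4.3.3; filtering by expression, TMM, quasi-likelihood F-test, Benjamini-Hochberg over all 1797 tested, adjusted p under 0.05) compared the genotypes. Within-pool ratios carry exact conditional binomial 95% intervals. limma 3.58.1, DESeq2 1.42.0, SciPy 1.17.1 and other scalings, filters and left-out libraries served as alternatives. Libraries of a genotype are separate pools, so p-values measure the spread between pools.

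Members and lists were chosen with earlier results of these data known. Named miRNAs were the members, miR-143-5p and miR-145b, the 4 most abundant of each list, the 5 nearest by distance to each guide strand, and miR-16-5p; of the muscle, red blood cell and liver lists the sums are given in place of most names. miR-208a-3p, miR-208b-3p, miR-499-5p, miR-490-3p, miR-146b-5p, miR-29c-3p and miR-181a-1-3p as a 1.5-fold case were singled out after their values were seen. Sequences of the members are not reported here.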

Additional observations from a re-analysis of the deposited data

Results flagged for a closer look

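The KO over WT ratios of all 3 members lay on opposite sides of 1 in the pools with TMM scaling, with 1 library on each side of a ratio. miR-143-3p was 1.73 times as high in KO as in WT in pool 1 and 0.524 times in pool 2. miR-145a-5p was 1.82 times as high in pool 1 and 0.479 times in pool 2. miR-145a-3p was 1.54 times as high in pool 1 and 0.824 times in pool 2, where both counting intervals include 1, and the pool 2 ratio was 0.982 with total UMIs. The difference between pools was not tested, and no statement about an effect of genotype is drawn from it.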

How the results depend on the processing

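No member was called under any setting run. Of the estimates of log2 fold change, those that changed sign outside the left-out libraries numbered 1: miR-143-3p with total UMIs (0.15). Leaving out each library in turn gave -0.73 to 0.63 for miR-143-3p, -1.29 to 1.17 for miR-145a-5p and -0.12 to 0.49 for miR-145a-3p. The differences in share, KO minus WT, ran under the same omissions from -0.209 to 0.316, from -0.0122 to 0.00774 and from -0.000596 to 0.00144 percentage points for these 3. The log2 difference in miR-145a-5p over miR-143-3p ran from -0.57 to 0.52, and in miR-145a-5p over miR-145a-3p from -1.19 to 0.65. The number of miRNAs called, 0 in the main comparison, ran from 0 to 3 when a library was left out, and was 5 with total UMIs and pool number as a block, a setting chosen after the data were seen. Within-pool ratios moved with total UMIs to 1.53 (miR-143-3p, pool 1), 0.624 (miR-143-3p, pool 2) and 0.571 (miR-145a-5p, pool 2), and with read counts to 0.544 (miR-143-3p, pool 2); the cause was not tested. The labels do not say that a pool number marks shared handling. Pool 1 minus pool 2 deviations of WT and KO correlated at 0.527 across miRNAs. With pool number as a replicate block, which leaves 1 residual degree of freedom, the log2 fold changes were -0.07, -0.11 and 0.18 for miR-143-3p, miR-145a-5p and miR-145a-3p, and 0 miRNAs were called. miR-145a-3p has no value in the test restricted to a mean of 100 or more UMIs, since it lies below that limit.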
